A study of Mus musculus with 3 samples.

Results

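The variable chain segments of the T cell receptor beta locus are described here as they were transcribed in regulatory T cells of the mouse. They comprise 51 of the 55536 genes in the deposited gene tables, chosen because their GENCODE M21 symbol starts with Trbv, Trbd or Trbj. Of these, 35 are V segments, 2 are D segments and 14 are J segments. The annotation calls 22 V segments genes and 13 V segments pseudogenes, and it calls 1 J segment, Trbj2-6, a pseudogene. The segments lie on chromosome 6 of mouse assembly mm10, all on the plus strand but Trbv31, which is on the minus strand beyond the constant genes.

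Polyadenylated RNA came from 1 biosample of inflammation-experienced regulatory T-cells, which the labels trace to an activated regulatory T cell, taken from 1 mouse donor at 12 weeks of age. The 3 libraries carry technical replicate numbers 1 to 3 of biological replicate 1. They form 1 group, with no control, no untreated cells and no second donor. The inflammatory stimulus, the sorting gate, the genotype and the strain are not given in the sources, so the alleles of the donor's locus may differ from those of the reference.

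A beta chain gene is assembled in the thymus. The recombinase made of Rag1 and Rag2 joins a D segment to a J segment and then a V segment to that pair, while terminal transferase (Dntt) adds bases at the joints. The joined exon is spliced to a constant exon, Trbc1 or Trbc2. The V segment encodes the leader and the first loops that contact the antigen-presenting molecule, and its last codons open the third loop, which the D and J segments complete. A Treg, the CD4 T cell that restrains immune responses under the factor Foxp3, carries such a receptor as other CD4 T cells do, and each clone uses its own combination. Counts per segment therefore depend on how many cells use a segment and on how much receptor RNA each cell holds, and these cannot be told apart in bulk RNA.

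The 3′ ends of V segments show the feature that marks a receptor V exon, the codon of the conserved cysteine that opens the third loop. The letters TGTGCCAGC, which read cysteine, alanine and serine, were searched on the sense strand in the last 30 bases of each V transcript. They stood in 13 of 22 V genes (59.1%) and in 4 of 13 V pseudogenes (30.8%), against 16 of 141708 other transcripts (0.0113%). The last 45 bases of segments to which the values below return are given from GENCODE M21 in the sense direction, with that motif in capitals. Trbv3 had the most counts in each library, Trbv13-2 and Trbv13-3 are the closest relatives in the locus, and Trbv16 and Trbv30 lack the exact motif.
Trbv3: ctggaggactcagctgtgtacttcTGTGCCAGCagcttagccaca
Trbv13-2: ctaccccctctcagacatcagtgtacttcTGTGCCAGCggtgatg
Trbv13-3: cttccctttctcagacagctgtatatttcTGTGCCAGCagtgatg
Trbv16: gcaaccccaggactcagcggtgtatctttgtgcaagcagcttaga
Trbv30: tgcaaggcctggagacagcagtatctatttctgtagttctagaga

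Another 4 V genes differed from the motif at 1 base. Counted from the first base of the motif, the change was C6A in Trbv16 and C6T in Trbv17, Trbv21 and Trbv29, which leaves the cysteine codon as it is. In 3 pseudogenes the single change fell in the cysteine codon, G2A in Trbv6, T1G in Trbv8 and T3G in Trbv10. In a further pseudogene, Trbv9, it was C9A, outside that codon. The exon of a V gene must also be read through without a stop. In a stretch of 240 bases that ends 20 bases before the 3′ end, all 22 V genes had a reading frame free of stop codons. Among the 13 pseudogenes, Trbv10 alone had one.

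D and J segments are short, and their length decides which of them could be counted. The conserved J core, phenylalanine, glycine, any residue and glycine, was searched on the sense strand as TTNGGNNNNGG, and it stood in 11 of 14 J segments. In the last 50 bases of other transcripts it stood in 880 of 141708 (0.621%). The sequences that follow are whole segments from GENCODE M21, with that core in capitals. They show both D segments, the 6 J segments that held counts, and 3 that held none.
Trbd1: gggacagggggc
Trbd2: gggactgggggggc
Trbj1-3: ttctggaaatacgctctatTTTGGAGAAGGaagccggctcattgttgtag
Trbj1-4: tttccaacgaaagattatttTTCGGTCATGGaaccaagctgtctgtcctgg
Trbj1-5: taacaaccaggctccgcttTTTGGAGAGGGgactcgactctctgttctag
Trbj1-6: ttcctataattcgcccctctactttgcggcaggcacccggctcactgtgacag
Trbj2-1: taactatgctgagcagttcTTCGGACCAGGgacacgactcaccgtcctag
Trbj2-2: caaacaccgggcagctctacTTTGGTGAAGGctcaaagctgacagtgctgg
Trbj2-5: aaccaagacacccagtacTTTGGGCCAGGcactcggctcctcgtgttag
Trbj2-7: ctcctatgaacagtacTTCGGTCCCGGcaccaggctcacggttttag
Trbj2-6: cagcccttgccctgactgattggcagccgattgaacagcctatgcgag

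The libraries held 35592206, 31611422 and 37728241 expected counts over annotated genes. An expected count is a number of reads that the authors' model shared out among genes, and it need not be whole. Library 3 stands apart from the others in the series by transcripts of a gland, led by Bpifa2, a secreted protein of saliva, with 891348 counts in library 3 against 45 and 136 in libraries 1 and 2. That gene took 2.36% of the gene counts of library 3. The shares below are taken within the V or J segments of a library, so counts of other genes do not enter them. The chains that pair with the beta chain were abundant, with Trac, the alpha constant region, at 2744, 3080 and 2830 TPM in libraries 1 to 3 (TPM is a level corrected for length and scaled to a fixed sum). Cd3d, Cd3e, Cd3g and Cd247, the signalling chains, had means of 340 to 1229 TPM.

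Markers were set beside the label. All 6 markers of CD4 T cells and Tregs stood at a TPM of at least 1 in each library, with a summed level of 7933 to 8465 TPM. Most of that sum came from receptor genes not particular to CD4 T cells, Trac, Trbc2 and Cd3e, with means of 2884, 3399 and 1119 TPM. Cd4 and Il2ra had means of 380 and 248 TPM. Foxp3 stood at 97.6 ± 1.04 TPM (SD, n = 3). Markers of other cells that can carry a rearranged beta locus were low. The 2 CD8 markers summed to 16.9 to 26.5 TPM and the 2 of invariant NKT cells to 1.99 to 2.69 TPM. The 3 markers of gamma delta T cells found in the annotation summed to 2.12 to 4.21 TPM, and those of myeloid cells to 0.83 to 2.68 TPM. The 4 B cell markers stood higher, at 53.2 to 60.3 TPM summed, led by Cd79b and Cd79a with means of 30.4 and 16.7 TPM. All 4 were at a TPM of at least 1 in each library. No marker was at 0 in all 3 libraries. Genes of ongoing rearrangement had means under 1 TPM. Rag1 had 51, 0 and 10 counts, Rag2 had 0, 3 and 0, and Dntt had 13, 44 and 20, while Ptcra, which pairs with the beta chain before the alpha chain is made, had 5, 3 and 2.

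V segments together took 18650, 16976 and 19758 counts in libraries 1 to 3. That is 524, 537 and 524 CPM (counts scaled to a fixed total of gene counts), so the 3 libraries lay close together. J segments took 85, 66 and 113 counts and D segments took none. Against the constant genes Trbc1 and Trbc2, which had 76202, 71855 and 79739 counts together, the V counts came to 24.5%, 23.6% and 24.8%. Trbc2 took 63.1 ± 1.86% of the constant TPM (SD, n = 3). The near-identical constant genes share reads, and the authors' posterior standard deviation for each was 141, 137 and 143 counts.

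The V segments were used broadly but unequally. At least 1% of V counts was held by 20, 19 and 19 of the 35 in libraries 1 to 3. The 19 that reached it in all 3 libraries are V genes, and the one more in library 1 was Trbv23, at 1.00%. The effective number of V segments, which is the number of equally used segments that would give the same evenness (the inverse of the summed squared shares), was 14.3, 14.5 and 13.0. The 5 segments with the highest mean share together held 47.1%, 43.9% and 51.5% of V counts. Library 3 was the most concentrated on both measures, with the fewest effective segments and the largest share in these 5.

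**Figure D1:**
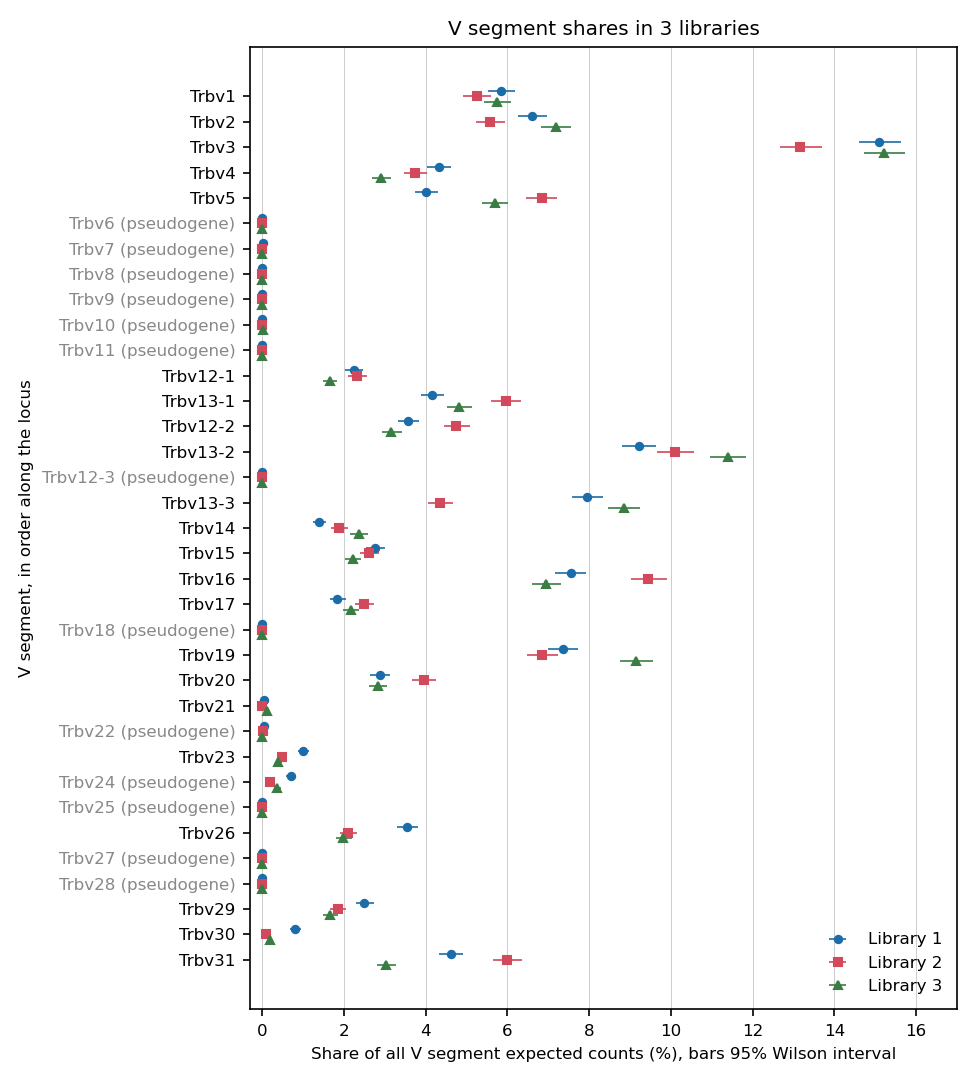
Share of all V segment expected counts in percent (horizontal axis) for each V segment in locus order (vertical axis), with a point per library and its 95% Wilson interval, pseudogenes named in grey. Trbv3 lies furthest right in each library, between 13.2% and 15.2%, and the pseudogene rows other than Trbv24 lie at or near 0.

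Trbv3 held 15.1%, 13.2% and 15.2% of V counts in libraries 1 to 3 and ranked first in each. Trbv13-2 held 9.21%, 10.1% and 11.4% and ranked next in each. Their shares did not overlap. On the length-corrected scale the order between them was not stable, because Trbv3 has a longer transcript (455 bases against 340). Trbv3 had 314, 284 and 307 TPM and Trbv13-2 had 268, 304 and 321 TPM, so Trbv3 led in library 1 and Trbv13-2 in libraries 2 and 3.

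Trbv16 held 7.54%, 9.45% and 6.94% of V counts, highest in library 2. Trbv19 held 7.35%, 6.86% and 9.14%, highest in library 3. Trbv13-3 held 7.95%, 4.35% and 8.85%, so library 2 was far below the other two. Trbv2 held 6.60%, 5.57% and 7.18%, and Trbv1, which lies farthest upstream of the D segments, held 5.85%, 5.25% and 5.75%. Trbv5 held 4.01%, 6.83% and 5.69%, lowest in library 1. These 8 segments have the highest mean shares, from 14.5 ± 1.15% for Trbv3 down to 5.51 ± 1.42% for Trbv5 (SD, n = 3).

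In TPM, 22 V segments had a mean of at least 10. Of the 21 pairs of neighbours in that order, 18 had ranges over the 3 libraries that overlapped. The breaks lay below Trbv13-2 (297 ± 27.3 TPM, next Trbv13-3 at 204 ± 63.8), below Trbv19 (127 ± 15.7 TPM, next Trbv2 at 107 ± 10.2) and below Trbv14 (49.6 ± 12.0 TPM, next Trbv23 at 17.7 ± 9.50). The order of neighbours inside these runs is therefore mostly not set by these libraries, but segments further apart in a run can be separate. Trbv16, at 163 to 237 TPM, lay above Trbv19, at 116 to 145 TPM. Likewise Trbv2, at 95.4 to 115 TPM, lay above Trbv14, at 36.8 to 60.6 TPM. A group of 19 V genes stood above the last break and 3 segments, Trbv23, Trbv24 and Trbv30, between it and 10 TPM.

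The lowest V gene was Trbv21, with 6, 0 and 23 counts and a mean of 1.46 ± 1.78 TPM (SD, n = 3). A count of 0 of 16976 in library 2 allows a share of up to 0.0177%, for counting error only. Trbv21 was below the pseudogene Trbv24 in every library, although its frame is free of stops and it keeps the cysteine codon. It is the V gene without counts in 1 of the libraries, and the other 21 V genes had counts in all 3.

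Position and length were set beside usage as descriptions. Over the 21 V genes on the plus strand, the mean share had a Spearman correlation of 0.58 with the distance from the segment's 3′ end to Trbd1. The 3 V genes nearest to the D segments on that side, Trbv30, Trbv29 and Trbv26, lie 251, 261 and 305 kb away and held mean shares of 0.367%, 2.00% and 2.54%, while Trbv3 lies 484 kb and Trbv1 641 kb away. Trbv31, which is inverted and lies on the other side of the J segments, held 4.61%, 5.99% and 3.03%. Over all 22 V genes, mean count and transcript length had a Spearman correlation of 0.44. The points share libraries and depth, and neighbours in the locus are also relatives in sequence.

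V pseudogenes held few of the counts. They took 140, 35 and 79 counts, which is 0.751%, 0.206% and 0.400% of V counts (0.452 ± 0.276%, SD, n = 3). Trbv24 alone gave 129, 31 and 73 of these, or 92.1%, 88.6% and 92.4%. The other 12 pseudogenes summed to 11, 4 and 6 counts. Next to Trbv24 came Trbv22 with 7, 3 and 1 counts, Trbv10 with 0, 0 and 4, and Trbv7 with 3, 0 and 0. Of the 13 pseudogenes, 2 had counts in all 3 libraries, 4 in 1 or 2 libraries, and 7 in none.

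Trbv24 was counted as often as some V genes, with mean counts above those of Trbv30 and Trbv21. Its last 45 bases are shown beside those of Trbv26, a V gene and its closest relative among all V segments (75.0% identity over the last 240 bases), with the codon that is a stop in Trbv24 in capitals.
Trbv26: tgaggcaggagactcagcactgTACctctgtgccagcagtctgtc
Trbv24: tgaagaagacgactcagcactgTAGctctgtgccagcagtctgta

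Positions are counted from 1 at the first base shown, with the base of Trbv26 first. The substitutions were G4A, C6A, G9A, A10C, C25G and C45A. C25G turns the codon TAC, for tyrosine, into the stop TAG, which lies in the same frame as the cysteine codon that follows. It was the only stop codon of Trbv24 in that frame within the 240 bases searched. Both sequences hold the V motif.

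V usage differed between the 3 libraries beyond what Poisson noise in the reads gives. A chi-square test of the TMM-scaled libraries (TMM is edgeR's scaling for library composition), with Benjamini-Hochberg adjustment over the 18253 genes whose counts averaged 10 or more, called 21 of the 22 V segments tested. The background was 77.2% of all genes called, and 79.0% of the 9577 genes with mean counts of 50 to 3000, the range that holds all 22. The members' share is thus to be read against a background that is itself high. The test compares libraries labelled technical and no conditions, and amplified reads are not independent molecules, so its p-values cover counting error only. Of the called V segments, 7 were highest in library 1, 8 in library 2 and 6 in library 3, so no library was high throughout.

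By size, 9 of the 22 members in that range had a highest TMM-scaled library at 1.5 times the lowest or more. The background was 29.0% of genes (2774 of 9577). By share of V counts, which is another measure and has no background over all genes, 10 of the same 22 differed that much. Trbv12-2 and Trbv29 were among them at ratios of 1.504 and 1.501, but stood at 1.498 and 1.417 when TMM-scaled. Trbv13-1 went the other way, at 1.512 when TMM-scaled and 1.434 in share.

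**Figure D2:**
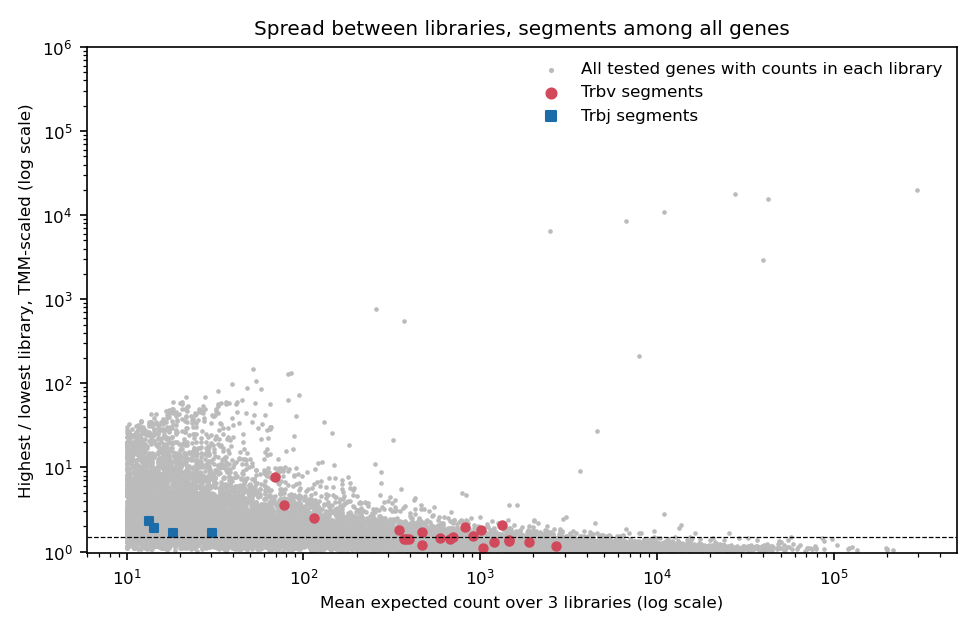
Ratio of the highest to the lowest TMM-scaled library (vertical axis, log scale) against mean expected count (horizontal axis, log scale) for all tested genes with counts in each library (grey), V segments (red circles) and J segments (blue squares), with a dashed line at a ratio of 1.5. Trbv30, at a ratio of 7.66, stands highest among the V segments, and Trbv1, at 1.10, lowest.

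Among the V segments tested, Trbv30 varied most between libraries. It had 151, 17 and 38 counts, or 0.810%, 0.100% and 0.192% of V counts, a ratio of 8.09, and the chi-square test gave an adjusted p of 6.89e-29. Library 1 was high and libraries 2 and 3 low, with Wilson intervals of 0.691 to 0.949% in library 1, 0.0625 to 0.160% in library 2 and 0.140 to 0.264% in library 3. Trbv23 was also highest in library 1, with 187, 82 and 75 counts and shares of 1.00%, 0.483% and 0.380%. Trbv24 had 129, 31 and 73 counts, a ratio of 3.79 in share, lowest in library 2. Trbv26 had 661, 357 and 392 counts, again highest in library 1, and Trbv29 had 466, 313 and 329.

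Library 1 was highest for all 5 of these segments, which lie among the last V segments before the D segments. Trbv21, from the same stretch, went the other way, with 6, 0 and 23 counts and a Wilson interval in library 3 above those of libraries 1 and 2. Trbv22, also from there, had 7, 3 and 1 counts. Both had too few counts to enter the chi-square test. The called V segments highest in library 1 were 7 in all, and these 5 were chosen for their ratio between libraries, so the grouping is a description.

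Other segments moved in other ways. Trbv13-3 had 1483, 739 and 1748 counts, and its share in library 2 was 2.03-fold below that in library 3 (adjusted p of 9.85e-59 by the chi-square test). Trbv31 had 860, 1017 and 598 counts, highest in library 2 and lowest in library 3, a ratio of 1.98 in share (adjusted p of 1.63e-38). Trbv5 had 748, 1160 and 1124 counts, lowest in library 1. Trbv14 had 259, 318 and 466 counts, highest in library 3. Trbv12-2 had 666, 806 and 624 counts, highest in library 2.

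Trbv1 was the only V segment tested that was not called, with 1090, 891 and 1136 counts and an adjusted p of 0.127. The Wilson intervals of its 3 shares overlapped. Over all 35 V segments, pseudogenes at or near 0 included, the intervals of at least 1 pair of libraries were apart for 22. For 7 of these all 3 pairs were apart. Such intervals were not taken over all genes, so this count has no background, and the chi-square test called 77.2% of all genes tested.

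**Figure D3:**
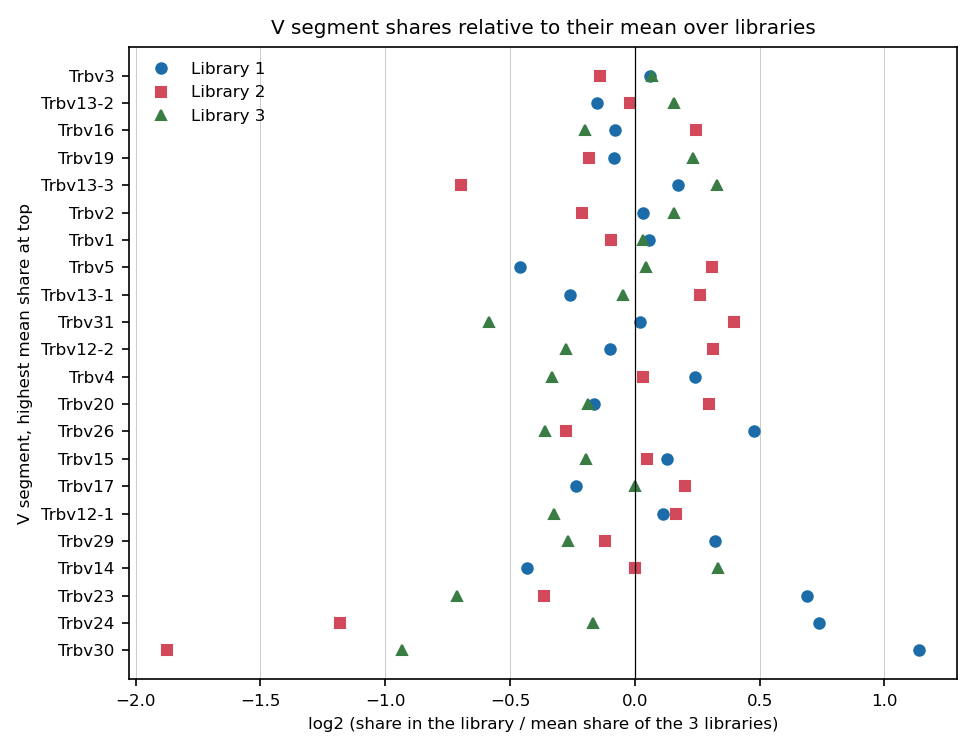
The log2 of a V segment's share in a library over its mean share in the 3 libraries (horizontal axis) for the 22 V segments tested, highest mean share at the top. Trbv30, Trbv24 and Trbv23 spread widest at the bottom, Trbv13-3 has library 2 far to the left, and Trbv1 lies closest to 0.

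Close relatives moved together in some pairs and apart in others. In the Trbv13 group, Trbv13-1 held 4.15%, 5.96% and 4.82% of V counts, highest in library 2, where Trbv13-3 was lowest. Trbv13-2 and Trbv13-3 were both highest in library 3, but Trbv13-2 was lowest in library 1. The group as a whole held 21.3%, 20.4% and 25.0%. The identity over the last 240 bases was 90.8% between Trbv13-2 and Trbv13-3, 87.1% between Trbv13-1 and Trbv13-2, and 84.6% between Trbv13-1 and Trbv13-3. The Trbv12 group held 5.81%, 7.07% and 4.81%, with Trbv12-1 and Trbv12-2 (87.9% identity) both highest in library 2 and lowest in library 3.

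The order of the V genes was nonetheless much the same from library to library. Over the 22 V genes, shares had a Spearman correlation of 0.90 between libraries 1 and 2, 0.95 between libraries 1 and 3, and 0.92 between libraries 2 and 3. These describe segments of 1 biosample.

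Reads were assigned to V segments with little ambiguity. Of the 35, 28 had no 50-base window in common with another gene of the annotation. Trbv13-2 and Trbv13-3 shared 1 of 291 windows, and Trbv12-2 and the pseudogene Trbv12-3 shared 4. The authors' posterior standard deviation was 0 in all libraries for 26 V segments, and for the others it stayed under the square root of the count wherever there was a count. It was highest for Trbv5, at 3.98, 6.32 and 5.91 counts.

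Trbv4 and Trbv5 overlap the annotated long noncoding RNA 5830405F06Rik, with which they share 248 of 344 and 247 of 319 windows, and Trbv8 shares all 236 of its windows with AC153851.1. The splits of reads between that RNA and Trbv4 or Trbv5 are therefore model estimates. The RNA was given 21.3, 52.5 and 51.0 counts, lowest in library 1 as Trbv5 was. Trbv4 went the other way, with 804, 634 and 573 counts, highest in library 1. Between Trbv1 and Trbv31 lie 28 other genes besides the constant genes, among them trypsin genes, and 4 of these had counts in all 3 libraries. The highest count of any of them in a library was 54, for Gm2663.

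J segments were countable only where they were at least as long as a read. In the deposited tables the effective length of each gene with counts was its length less 49, the value that a read of 50 bases gives, and the shortest gene with counts was 50 bases long. Both D segments, at 12 and 14 bases, and the 8 J segments of 45 to 49 bases held 0 counts in every library. All 6 J segments of 50 bases or more held counts in each. Across the annotation, 73 genes are shorter than 50 bases and none had a count in any library. A count of 0 for these segments is thus set by length and says nothing about their use.

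**Figure D4:**
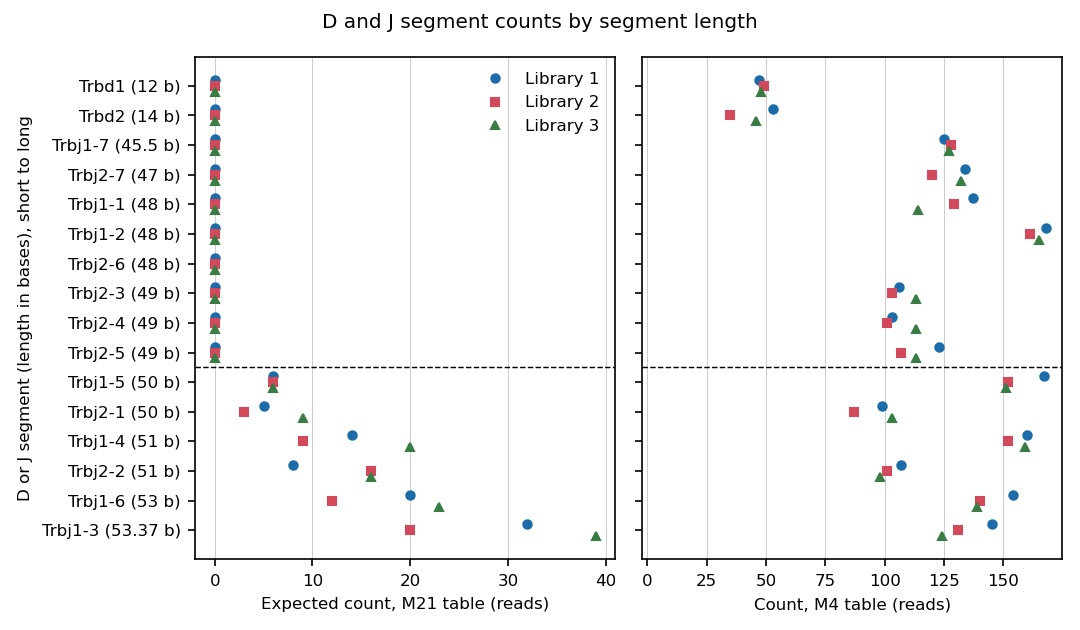
Counts of each D and J segment in each library, in the M21 table (left) and in the M4 table (right), with segments ordered from short to long and a dashed line between those under 50 bases and the others. In the M21 table the segments above the line are at 0, and in the M4 table the same segments hold 35 to 168 counts, but for Trbj2-6, which has no M4 value.

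Trbj1-3 had 32, 20 and 39 counts in libraries 1 to 3. Trbj1-6 had 20, 12 and 23, Trbj1-4 14, 9 and 20, Trbj2-2 8, 16 and 16, Trbj1-5 6, 6 and 6, and Trbj2-1 5, 3 and 9. Where a segment is 50 bases long, as Trbj1-5 and Trbj2-1 are, a read can lie in it in 1 way only, over the whole segment. Reads that cross a joint with V, D or a constant exon are longer than what the annotated segment holds of them. Mean counts over the 3 libraries ran in the order of the number of start positions, which is 5 for the 54-base form of Trbj1-3, 4 for Trbj1-6, 2 for Trbj1-4 and Trbj2-2, and 1 each for Trbj1-5 and Trbj2-1. In library 2 Trbj2-2, with 16 counts, stood above Trbj1-6, with 12.

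Per start position, the J segments that can hold a read summed to 34.3, 29.1 and 47.7 counts, and the V segments to 54.0, 49.6 and 56.8. On this scale the 2 sums differed far less than in counts, where J segments came to 0.456%, 0.389% and 0.572% of V segments. The J sum leaves out the 8 J segments under 50 bases while the V sum covers all 35 V segments, so the sums are not like for like. The same correction makes J values in TPM unstable. A single read of Trbj1-5 was worth 45.3, 51.5 and 41.5 TPM, against 0.112, 0.127 and 0.102 TPM for a read of Trbv3. Trbj1-3 accordingly stood at 375 ± 167 TPM (SD, n = 3) from 32, 20 and 39 counts, above the 302 ± 16.1 TPM of Trbv3.

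Most reads of Trbj1-3 went to a transcript that is not the J exon alone. The annotation gives 2 transcripts, one of 50 bases annotated as a J gene, given above, and one of 54 bases annotated as a processed transcript. The longer one begins with the same 50 bases and ends with 4 more, gtaa.
Trbj1-3 processed transcript: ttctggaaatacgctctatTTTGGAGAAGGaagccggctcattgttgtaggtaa

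The authors' transcript estimates gave the processed transcript 30.8, 19.3 and 31.9 counts and the J gene transcript 1.16, 0.66 and 7.07 counts. The longer form was higher in each library. A read over its last 4 bases continues past the end of the J exon, where a spliced transcript would continue into the constant exon. A read of 50 bases has 5 start positions in the longer form and 1 in the shorter, and reads across a joint fit neither. The counts therefore do not give the proportion of the 2 forms in the cells.

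None of the 4 J segments with a mean count of at least 10 was called different between libraries by the chi-square test with Benjamini-Hochberg adjustment. The adjusted p was 0.188 for Trbj1-3, 0.262 for Trbj1-4, 0.394 for Trbj1-6 and 0.150 for Trbj2-2, and 0 of the 4 had an unadjusted p under 0.05. The background was 77.2% of all genes tested (14094 of 18253), and 10248 of the 12573 genes with mean counts of at least 50. No background was taken at the counts of these J segments alone, with means of 13.3 to 30.3. At these counts only wide differences could pass. Segments of the Trbj2 cluster held 15.3%, 28.8% and 22.1% of J counts (22.1 ± 6.75%, SD, n = 3), from 2 of its 7 segments, Trbj2-1 and Trbj2-2.

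A further table that the authors counted against annotation M4 holds whole numbers for the same libraries and lists segments that the M21 table leaves at 0. In it, Trbd1 had 47, 49 and 48 counts and Trbd2 had 53, 35 and 46. All 13 J segments with an M4 value had counts, from 99 to 168 in library 1, 87 to 161 in library 2 and 98 to 165 in library 3. Trbj1-2, at 48 bases, had the most in each, with 168, 161 and 165. The Trbj2 cluster took 38.9%, 38.4% and 40.7% of the M4 J counts, a larger share than in the M21 table. There, 5 of its segments are too short to be counted, as are Trbj1-1, Trbj1-2 and Trbj1-7 of the other cluster. How much of the difference in share goes with length was not tested.

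Values in the M4 table level off at high counts, so differences between segments are compressed in it. Trbv3 had 652, 640 and 679 M4 counts, which is 23.2%, 28.6% and 22.6% of its M21 counts. Trbv14 had 212, 229 and 305, or 81.8%, 72.0% and 65.5%. At the low end the tables gave nearly the same numbers, with 145, 16 and 41 M4 counts for Trbv30 against 151, 17 and 38 in the M21 table. Trbv13-3 had 497, 368 and 493 M4 counts, again lowest in library 2. Mean counts in the 2 tables had a Spearman correlation of 0.97 over the 21 V genes that both list.

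**Figure D5:**
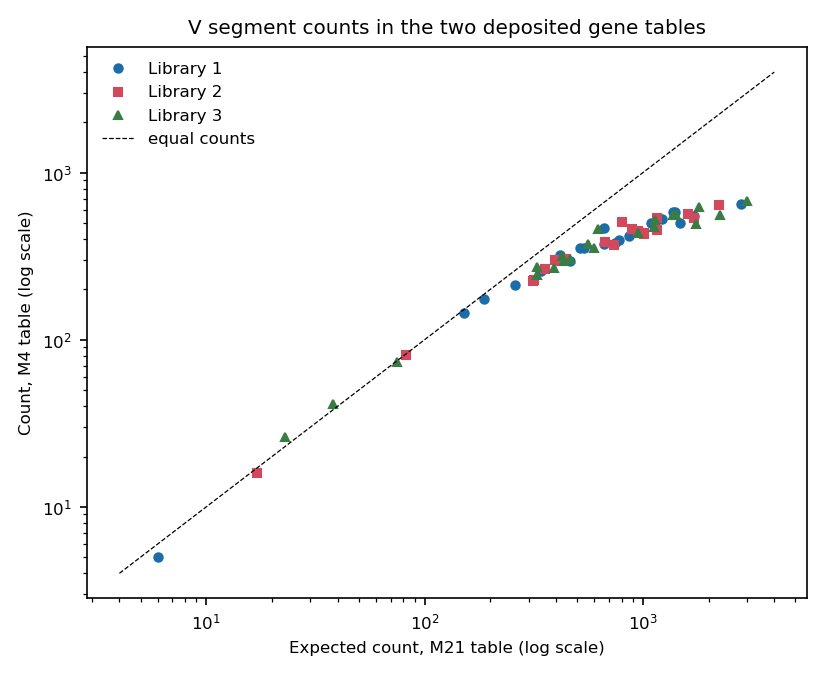
M4 counts (vertical axis, log scale) against M21 expected counts (horizontal axis, log scale) for the 21 V genes in both tables, with a point per library and a dashed line at equal counts. Points lie near the line up to about the counts of Trbv23 (187 in library 1) and fall below it further right, where Trbv3 reaches 679 M4 counts at 3006 expected counts.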

How the data were processed

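RNA of 3 libraries of 1 biosample was analysed as 1 group, with no comparison of conditions. Per the file headers, the authors deposited expected counts, posterior mean counts with a posterior standard deviation, and TPM values for genes and transcripts of GENCODE M21 on mm10. The authors also deposited whole-number counts per gene against annotation M4. The aligner is not given in the sources used here, nor is the counting program. Segments and lists were chosen with earlier results of these data known. Segment sequences came from GENCODE M21 transcripts, since no mm10 genome was at hand, so recombination signals and promoters are not analysed here.

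A share is a segment's expected count over the sum of all V (or J) segments of the library, with a 95% Wilson interval, which covers counting error only, as does the limit of 3 counts that a count of 0 allows. Expected counts were rounded and scaled by TMM in edgeR 4.0.16 (R 4.3.3). Genes whose rounded counts averaged 10 or more got a chi-square test of the 3 libraries against Poisson noise. Benjamini-Hochberg adjustment at 0.05 was over all genes. The test was tried only on counts simulated with that same Poisson noise, which cannot show how it behaves on these libraries. The remaining steps ran in Python 3.11.15 with scipy 1.17.1, pandas 2.3.3, numpy 2.4.6 and Biopython 1.88. Transfer RNA, spike-in and phiX rows stayed out. Segments are named in full where they are among the 8 V segments of highest mean share, J segments with counts, the 4 pseudogenes of highest count, or V segments with a share ratio of at least 1.5 at a mean count of at least 50. Any other segment named with values was chosen after its values were seen.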

Additional observations from a re-analysis of the deposited data

How the results depend on the processing

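Of 51 recomputed values of the main results, 47 stayed within the spread between libraries (the SD) or, for counts, within 1.5 times. Leaving out 1 of 3 libraries cannot move a mean beyond that spread, so such values could only stay within it. Keeping only J segments of at least 50 bases could change nothing either, since the shorter ones held no counts. M4 counts cover 21 of the 35 V segments, without Trbv4 and the pseudogenes, so V shares by M4 counts have another total. With M4 counts, which level off, the effective number of V segments was 17.3, the share of the 5 leading segments 36.6%, and that of the Trbj2 cluster among J counts 39.3%, the last an alternative chosen after seeing the data. Without library 1, 2 or 3, 10273 of 17800, 9267 of 18872 and 11076 of 18198 genes tested were called different. In the same order, 18 of 23, 19 of 23 and 17 of 22 V segments tested were called, and the pseudogene share of V counts was 0.303%, 0.575% and 0.478%. Other scalings, posterior mean counts, added posterior variance and a minimum of 50 counts left 21 of 22 V segments called, and a minimum of 1 gave 23 of 26 tested. Among all genes, the minimum of 50 called 10248 of 12573 and the minimum of 1 called 19829 of 32833. The scalings, posterior mean counts and added variance called 13337 to 14202 genes, of 18253 or 18395 tested. Of 86 values of single segments, 78 stayed within the spread, and the same limits apply to these. The 8 others were shares by summed TPM of Trbv3 (12.3%), Trbv13-2 (12.1%), Trbv19 (5.20%), Trbv2 (4.36%) and Trbv1 (5.26%), and by M4 counts of Trbv3 (8.41%), Trbv13-2 (7.03%) and Trbv1 (6.29%). No paired analysis was possible because there is 1 group. For segments under 50 bases, read length and not depth is the limit.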
